A study of Bos taurus with 18 samples.

Results

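Cytosolic ribosomal proteins were followed in brushed bovine endometrium as 62 genes of the 38001 rows in the deposited count table. A gene was taken if its symbol named a protein of the large (RPL) or small (RPS) subunit, or was RPLP0, RPLP1, RPLP2 or RPSA, if that symbol stood on 1 row only, and if its mean over the 18 libraries was at least 10 CPM (counts scaled to the total of the library, the usual library-size unit). The 62 genes comprised 34 of the large subunit, 25 of the small subunit and 3 paralogs, RPL7L1, RPL22L1 and RPL26L1. In all, 73 symbols on 87 rows fitted the name pattern. Another 9 symbols, RPL12, RPL17, RPL23A, RPL36A, RPL39, RPS15A, RPS25, RPS27L and RPS3A, stood on 23 rows and were left out, and RPL3L (mean 2.28 CPM) and RPL10L (mean 0.00299 CPM) lay under the level limit. The members nearest above the limit were RPL26L1 at 22.5 CPM, RPL7A and RPS28 at 23.5 CPM each, and RPL22L1 at 46.2 CPM. Ribosomal proteins under other symbols, or whose symbol was not on a row, were not analysed here, so the 62 genes are not the whole ribosome.

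A ribosome has a small subunit that reads the messenger RNA and a large subunit that joins amino acids, and its proteins are made in matched amounts and assembled with ribosomal RNA in the nucleolus. Messages of ribosomal proteins begin with a run of pyrimidines, the 5′ terminal oligopyrimidine (TOP) start, through which the kinase mTOR controls their translation together with that of several translation factors, while MYC is known to promote their transcription. In the uterus, the endometrial glands build up a secretory machinery during the early luteal phase, when ovarian progesterone rises.

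The libraries came from 6 Holstein cows, whose endometrium was sampled with a cytobrush on the side bearing the corpus luteum. In the 17-OHPC/P4 arm, cows A, B and C received a depot of 100 mg of 17α-hydroxyprogesterone caproate with 10 mg of progesterone on day 4 of a second synchronized cycle, and were sampled on day 7 (treated day 7). In the P4 arm, cows D, E and F received 100 mg of progesterone on day 4 of that second cycle, with the same sampling (treated day 7). In both arms, day 7 and day 4 of the first synchronized cycle, without exogenous progestogen, gave the control day 7 and control day 4 samples of the same cows. Every cow had undergone Ovsynch before each cycle, each of the 6 groups held 3 cows, and treatment always fell in the later cycle, so that treatment and cycle order cannot be told apart. Control day 7 also followed a cytobrush sample on day 4 of the same cycle, while the libraries hold no day 4 sample of the second cycle. Any effect of that earlier sampling was not tested. Such a brush takes surface cells of a tissue that is a mixture, and in such bulk samples fewer cells of a type and less RNA per cell cannot be told apart.

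Total counts ran from 29347255 to 40733544 per library, and all 62 genes were among the 19638 that passed the filter on low counts. Of the counts from 1 to 20, 78.3% were even. Whether both reads of a pair were counted is not given in the sources used here, so counts may exceed the number of fragments. All 12 of the epithelial markers examined were above 0 in every library. The 3 libraries of cow C stood apart, with a summed level of red blood cell markers of at least 379 CPM against at most 5.76 CPM in the libraries of the other cows. Results are therefore also given without cow C where that moves them.

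The 62 genes together took between 1.75% and 6.11% of a library's counts, a 3.50-fold span. In the 17-OHPC/P4 arm, the share on treated day 7 was 2.16% in cow A, 2.93% in cow B and 3.67% in cow C, against 3.06%, 5.27% and 3.51% in cows A, B and C on control day 7, and 6.11%, 5.38% and 4.69% on control day 4. In the P4 arm, the share on treated day 7 was 2.86% in cow D, 1.99% in cow E and 1.75% in cow F, against 2.23%, 1.82% and 4.33% in cows D, E and F on control day 7, and 2.89%, 3.43% and 4.73% on control day 4. In these shares of the total count, control day 4 was the highest of a cow's samples in all 6 cows, while treated and control day 7 changed places from cow to cow. This order depended on the scaling. With the TMM factors that the test used, the median log2 change of the 62 genes from control day 4 to control day 7 was 0.07 in cow B and 0.13 in cow F. From control day 4 to treated day 7 it was 0.22 in cow D. Averaged over both arms, the share was 2.56% ± 0.721 on treated day 7, 3.37% ± 1.29 on control day 7 and 4.54% ± 1.20 on control day 4 (SD, n = 6 each).

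**Figure D1:**
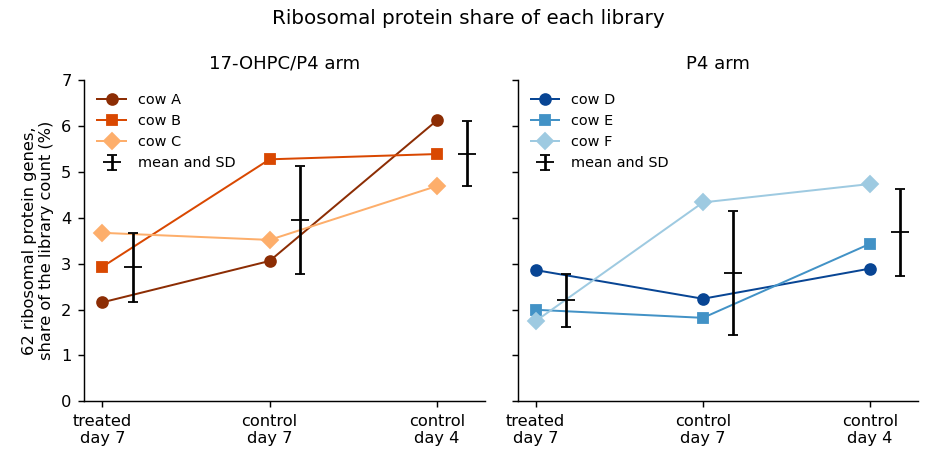
Summed share of the 62 ribosomal protein genes in each library (percent of the library count, vertical axis) on treated day 7, control day 7 and control day 4, with 1 line per cow and black marks for the mean and SD of the 3 cows. Shares run from 1.75% in cow F on treated day 7 to 6.11% in cow A on control day 4, and each cow's highest share is on control day 4.

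The genes moved together from library to library. Over the 18 libraries, which share cows, 55 of the 62 genes had a Pearson correlation of at least 0.9 with the median of the other members (log2 CPM, median 0.969, given as a description), and the first principal component held 91.9% of their variance. The order of the genes by CPM was also alike between libraries, with a rank correlation of 0.859 to 0.991 over the 153 pairs, and the summed level of the large subunit genes stood at 0.986 to 1.16 times that of the small subunit genes. RPS28, a small-subunit protein near the exit of the messenger RNA channel, followed the others least, with a correlation of 0.388. Genes under 0.9 also included RPL21 (0.840), RPL7L1 (0.851), RPS21 (0.862), RPL22L1 (0.864) and RPL7A (0.890). The highest library of a gene lay 1.91 to 7.22 times above its lowest, with a median of 3.64 over the 62 genes.

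**Figure D2:**
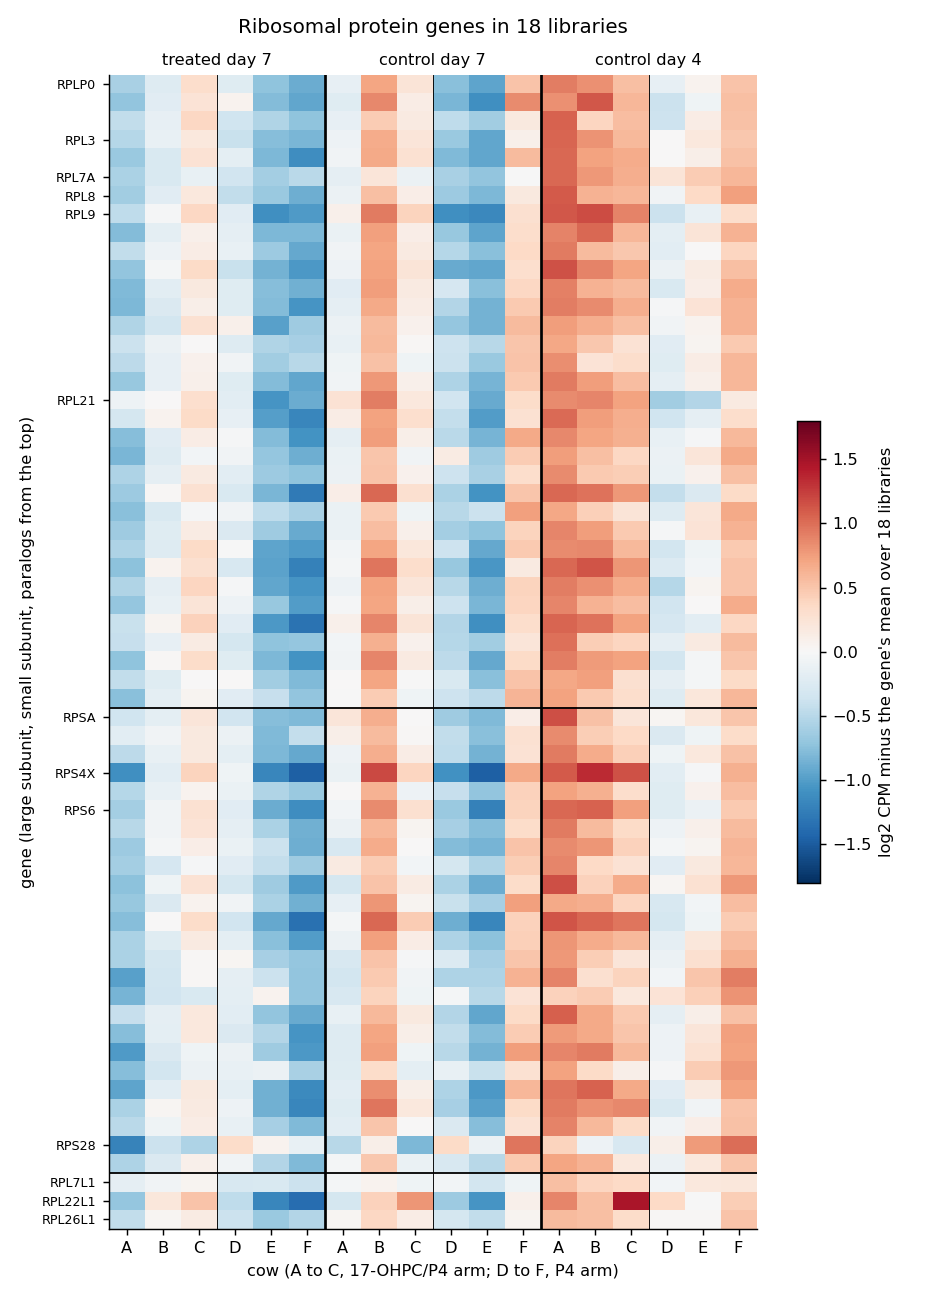
Level of each of the 62 genes in each of the 18 libraries, as log2 CPM minus the mean of the gene (colour scale), with libraries grouped as treated day 7, control day 7 and control day 4 and ordered by cow, and with the large subunit, the small subunit and the paralogs from top to bottom; only some genes are labelled. Colours run in columns: whole libraries are high or low, as for cow A on control day 4 (share of 6.11%) and cow F on treated day 7 (1.75%), and the RPS28 row departs from the rest.

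The first question was whether the progestin cycle differed from the untreated cycle on day 7. No ribosomal protein gene passed the test: edgeR called 0 of 62 at an adjusted p under 0.05, and 0% of the 19638 genes tested were called in either direction, while DESeq2 and limma voom also called 0 of the 62. All 62 fitted fold changes lay below 0, with a median log2 fold change of -0.35 against -0.01 for all genes tested, from -0.60 ± 0.37 (SE) for RPS4X, a small-subunit protein encoded on the X chromosome, to -0.07 ± 0.09 for RPL7L1. With 1 library left out, the median was -0.16 without the control day 7 library of cow F and -0.20 without that of cow B. At an unadjusted p under 0.05 stood 1 of the 62 genes, compared with 4.33% of all genes. It was RPL24, which forms a bridge between the subunits, at 208 ± 55.1 CPM on treated day 7 and 296 ± 80.7 CPM on control day 7 (SD, n = 6 each), a log2 fold change of -0.49 ± 0.21 (SE, edgeR adjusted p = 0.896).

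The common sign did not come from all cows. RPLP0, the base of the stalk that recruits translation factors, had 1087, 1400 and 2045 CPM on treated day 7 in cows A, B and C, against 1482, 2679 and 1920 CPM on control day 7. In cows D, E and F of the P4 arm, RPLP0 had 1408, 989 and 881 CPM on treated day 7, against 975, 849 and 2346 CPM on control day 7. The treated sample was the lower one in cows A, B and F and the higher one in cows C, D and E, and the groups overlapped. The median change of the 62 genes within a cow, in log2 CPM, was -0.52 in cow A, -0.80 in cow B, 0.06 in cow C, 0.31 in cow D, 0.08 in cow E and -1.32 in cow F. All 62 genes were lower on treated day 7 in cows A, B and F, whereas 15 of 62 were lower in cow C, 6 in cow D and 15 in cow E. No gene was lower in all 6 cows, as were 2.19% of all genes tested, and none was higher in all 6.

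Taken by arm, 61 of the 62 fold changes were below 0 in the 17-OHPC/P4 arm (median -0.38) and 62 in the P4 arm (median -0.33). EdgeR called 0 of 62 in each arm, where 0% of all genes were called in either direction. At an unadjusted p under 0.05 stood 0 of 62 in the 17-OHPC/P4 arm, against 1.89% of all genes, and 0 of 62 in the P4 arm, against 3.03%, and DESeq2 and limma voom called 0 in both arms. Both medians depended on single libraries. In the 17-OHPC/P4 arm the median was -0.12 without the control day 7 library of cow B, and -0.62 without all libraries of cow C. In the P4 arm the median was 0.07 without the control day 7 library of cow F and -0.56 without that of cow E, and -0.22 and -0.53 without the treated libraries of cows F and D. The doses differ between the arms (100 mg of 17-OHPC with 10 mg of progesterone, and 100 mg of progesterone), so the responses are set side by side. Their difference, tested as an interaction, was called for 0 of 62 genes by edgeR, DESeq2 and limma voom. EdgeR also called 0% of all genes there in either direction. At an unadjusted p under 0.05 stood 0 of 62, against 1.26% of all genes. The median difference was -0.06 (from -0.45 to 0.21 with 1 library left out), and -0.30 without all libraries of cow C. The individual 95% intervals of the 62 genes lay within -1.87 to 1.29. For RPLP0 the difference was -0.08 (95% interval -1.16 to 1.01), and for RPS6, the small-subunit protein phosphorylated downstream of mTOR, -0.15 (-1.27 to 0.97, edgeR adjusted p of 1 after rounding for both). An interval this wide does not show that the 2 formulations acted alike.

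**Figure D3:**
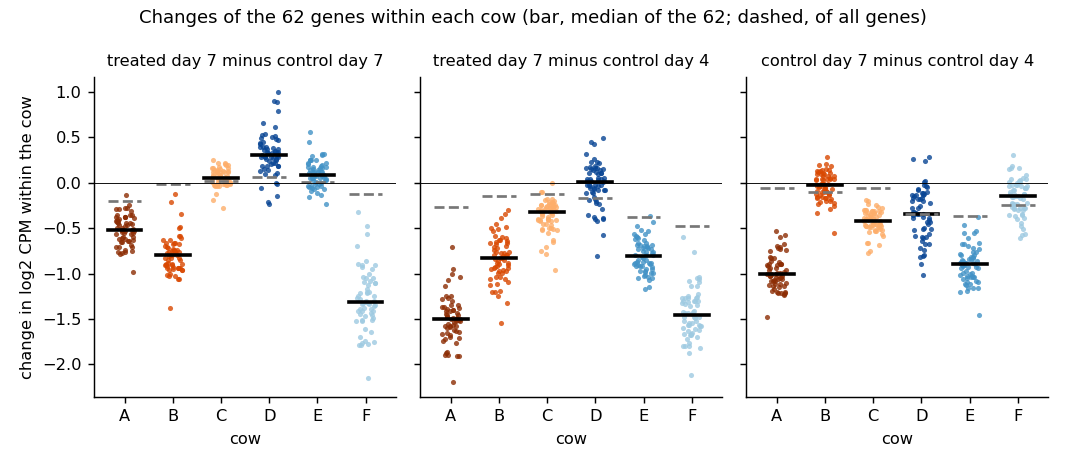
Change of each of the 62 genes within each cow (log2 CPM, vertical axis; each point is a gene), for treated day 7 minus control day 7, treated day 7 minus control day 4 and control day 7 minus control day 4. Black bars are medians of the 62 genes and dashed bars medians of all genes tested. Treated minus control day 7 has medians from -1.32 in cow F to 0.31 in cow D, and control day 7 minus day 4 medians from -1.002 in cow A to -0.03 in cow B.

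The second question was how day 7 stood against day 4 within the control cycle. RPL7A, a large-subunit protein, fell, and it was the only 1 of the 62 that passed the test, while 4.28% of all genes tested were called lower and 6.27% higher. RPL7A had 19.7, 25.7 and 20.4 CPM on control day 7 in cows A, B and C, against 44.9, 37.8 and 34.8 CPM on control day 4. In cows D, E and F, RPL7A had 14.7, 13.5 and 21.9 CPM on control day 7, against 25.9, 30.3 and 33.3 CPM on control day 4. It was lower on day 7 in 6 of 6 cows. In CPM by total count the day 7 and day 4 values did not overlap, a separation that 2.88% of all genes tested showed towards lower values. That separation was narrow, with 25.7 CPM in cow B on day 7 against 25.9 CPM in cow D on day 4. It depended on the scaling, since with the TMM factors that the test used these 2 values change order and the days overlap. The log2 fold change was -0.68 ± 0.13 (SE, edgeR adjusted p = 0.00721), and the call was kept under all 28 alternatives computed for it.

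The level of RPL7A was low for the family in counts not corrected for length: this gene, RPS28 and the 3 paralogs averaged under 100 CPM, and each of the other 57 genes at least 145 CPM. Ribosomal protein genes have many near-identical processed copies in mammalian genomes, and how the authors' counting treated reads that match several places is not given in the sources used here, so the levels of single members are uncertain to that extent.

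The other 61 genes did not pass, but nearly all lay on the same side. Of the 62 fold changes, 61 were below 0 (median -0.27, against -0.05 for all genes), and 5 genes stood at an unadjusted p under 0.05, or 8.06% of the members against 26.9% of all genes. With 1 library left out, the median was -0.15 and -0.45 without the control day 7 libraries of cows E and F, and -0.18 and -0.17 without the control day 4 libraries of cows A and F. RPL8, at the peptidyl transferase centre, averaged 653 ± 223 CPM on control day 7 and 1026 ± 269 CPM on control day 4 (SD, n = 6 each), a log2 fold change of -0.51 ± 0.21 (edgeR adjusted p = 0.123). RPL3, also near that centre, averaged 833 ± 327 CPM on control day 7 and 1247 ± 330 CPM on control day 4 (-0.45 ± 0.19, adjusted p = 0.153). For both genes the groups overlapped, since cows B, C and F on day 7 lay above the day 4 value of cow D. RPL22L1, the paralog of RPL22, was at -0.55 ± 0.25 (adjusted p = 0.180), RPL7L1, which acts in large-subunit assembly, at -0.20 ± 0.09 (adjusted p = 0.167), and the small-subunit protein RPS10 at -0.50 ± 0.24 (adjusted p = 0.195). The only value above 0 was 0.03 for RPL21.

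Cows differed in size here as well. The median change within a cow on control day 7 against day 4 was -1.002 in cow A, -0.03 in cow B, -0.42 in cow C, -0.34 in cow D, -0.90 in cow E and -0.14 in cow F. In CPM, 25 of the 62 genes were lower on day 7 in all 6 cows, compared with 15.1% of all genes tested. With the TMM factors that the test used, the median was lower in 4 of 6 cows, since cows B and F then lay just above 0 (0.07 and 0.13). Without the control day 7 library of cow F, 8 of the 62 genes were called lower: RPL7A, RPL8, RPL13, RPL3, RPL29, RPL9, RPS10 and RPL10A. The same fit called 7.64% of all genes lower. With library size alone in place of TMM, the median was -0.43 and RPL7A and RPL7L1 were called, but that scaling called 10.2% of all genes lower and moved the median of all genes by -0.16.

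Within the 17-OHPC/P4 arm, edgeR called 0 of 62 genes, where 0% of all genes were called lower and 0.0407% higher, and DESeq2 called RPL7A and RPL7L1 lower, as it did 0.510% of all genes. At an unadjusted p under 0.05 stood 2 of 62, against 9.62% of all genes. All 62 fold changes were below 0 (median -0.40, against -0.06 for all genes), with a median of -0.25 without the control day 4 library of cow A and -0.61 without the control day 7 library of cow B. RPL7A, RPL7L1 and RPL8 did not overlap between the days, or 3 of 62 genes against 8.13% of all genes. In the P4 arm, edgeR called 0 of 62, where 4.00% of all genes were called lower and 4.64% higher, and DESeq2 called RPL7A lower, as it did 7.69% of all genes. At an unadjusted p under 0.05 stood 1 of 62, against 26.0% of all genes. There 46 fold changes were below 0 (median -0.14, against -0.01 for all genes), and the median ran from -0.50 without the control day 7 library of cow F to 0.12 without that of cow E. The gap between the arms depended on the scaling. With library size alone, the median was -0.44 in the 17-OHPC/P4 arm (-0.11 for all genes) and -0.41 in the P4 arm (-0.28 for all genes). In this arm 2 of 62 genes, RPL7A among them, did not overlap between the days, against 29.1% of all genes. Those values are CPM by total count, a scaling that moved the median of all genes by -0.27 there relative to TMM. RPL7A stood at -0.80 ± 0.19 in the 17-OHPC/P4 arm (edgeR adjusted p = 0.156) and at -0.57 ± 0.19 in the P4 arm (adjusted p = 0.0741), and the difference between the arms was -0.23 (95% interval -0.80 to 0.34, adjusted p = 0.871). The interaction of arm and day was called for 0 of 62 genes by edgeR, DESeq2 and limma voom. Of all 19638 genes tested, edgeR called 0% in either direction and DESeq2 called 88. At an unadjusted p under 0.05 stood 1 of 62, against 7.71% of all genes. The median difference was -0.29 (from -0.51 to 0.11 with 1 library left out), and -0.05 with library size alone. The smallest p of this interaction belonged to RPL7L1, with a difference of -0.42 (95% interval -0.80 to -0.04, edgeR adjusted p = 0.612).

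**Figure D4:**
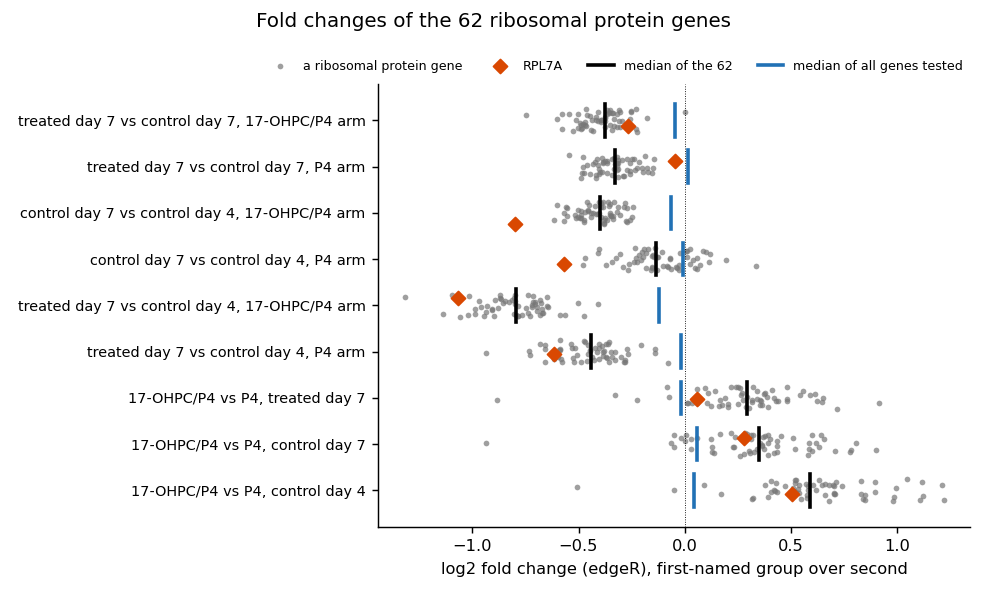
Log2 fold changes from edgeR (horizontal axis, first-named group over the second) of the 62 genes in each comparison shown, with RPL7A as an orange diamond, the median of the 62 genes in black and that of all 19638 genes tested in blue. The cloud lies farthest below 0 for treated day 7 against control day 4 in the 17-OHPC/P4 arm (median -0.79) and farthest above 0 for the 17-OHPC/P4 arm against the P4 arm on control day 4 (median 0.59).

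The widest separation was found between treated day 7 and control day 4 in the 17-OHPC/P4 arm, a comparison in which treatment, cycle and day differ together. In CPM by total count, 61 of the 62 genes had their 3 treated values below all 3 control day 4 values there, against 14.3% of all genes tested. That scaling moved the median of all genes by -0.09 relative to TMM. With the TMM factors that the test used, RPLP2 and RPL22L1 overlapped as well. RPSA, the small-subunit protein also known as the laminin receptor, was the exception in CPM by total count, with 1126, 1276 and 1668.0 CPM in cows A, B and C on treated day 7, against 3206, 2082 and 1665.8 CPM on control day 4. All 62 fold changes were below 0, with a median of -0.79 against -0.12 for all genes, and 54 of 62 stood at an unadjusted p under 0.05 (87.1%, against 20.5% of all genes). Because the 62 genes moved together from library to library, counts of members here and in the other comparisons are not counts of independent observations. Only RPL7A passed the adjusted test, in which 0.0255% of all genes were called lower and 0.657% higher. DESeq2 called 8 of the 62 genes lower, among them RPL7A, RPL3, RPL7L1, RPL8, RPL14, RPL10A and RPS20, and DESeq2 called 2.85% of all genes lower.

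RPL7A had 14.9, 18.1 and 20.1 CPM in cows A, B and C on treated day 7, against 44.9, 37.8 and 34.8 CPM on control day 4. The groups did not overlap, and the log2 fold change was -1.07 ± 0.19 (SE, edgeR adjusted p = 0.0268). That call was lost without the treated library of cow A (adjusted p = 0.144) or of cow B (0.0694), without the control day 4 library of cow B (0.110) or of cow C (0.105), without all 3 libraries of cow C (0.102), and when the fit held only the 2 groups compared (0.246).

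Members of other roles had values of like size that did not pass in this comparison. RPS6 had 580, 856 and 1077 CPM in cows A, B and C on treated day 7, against 1822, 1861 and 1485 CPM on control day 4 (log2 fold change -0.97 ± 0.37, edgeR adjusted p = 0.181). The stalk proteins RPLP0, RPLP1 and RPLP2 stood at -0.81 ± 0.36, -0.96 ± 0.46 and -0.67 ± 0.28, RPS3, at the entry of the messenger RNA channel, at -0.74 ± 0.30, and RPL11, which carries 5S ribosomal RNA and can bind MDM2, at -0.72 ± 0.30. RPS19 and RPS24, both mutated in human Diamond-Blackfan anaemia, were at -0.78 ± 0.33 and -0.89 ± 0.37. The largest fitted value was that of RPS4X at -1.32 ± 0.53 and the smallest that of RPL7L1 at -0.41 ± 0.13. By cow, the median change was -1.50 in cow A, -0.83 in cow B and -0.33 in cow C, and without cow C the median of the fitted fold changes was -1.03.

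In the P4 arm the same pair of time points gave a mixed picture. For treated day 7 against control day 4, the median change within a cow was 0.01 in cow D, -0.80 in cow E and -1.46 in cow F. All 62 fitted values were below 0 (median -0.44, against -0.02 for all genes), with a median of -0.70 without the treated library of cow D and -0.25 without the control day 4 library of cow F. Of the 62, 30 had treated values below all control values, against 31.4% of all genes tested. Those values are CPM by total count, a scaling that moved the median of all genes by -0.30 in this comparison relative to TMM. EdgeR called 0 of 62 genes, where 3.16% of all genes were called lower and 4.32% higher, and 6 of 62 were at an unadjusted p under 0.05 (9.68%, against 24.3% of all genes). With the cow as a replicate block, RPL22L1 (adjusted p = 0.0483) and RPL7A (0.0494) were called lower, as were 5.99% of all genes. DESeq2 (6.76% of all genes lower), and edgeR without the control day 7 library of cow F (3.96%), called RPL7A alone, and scaling by library size alone called RPL7A, RPL7L1, RPL26L1 and RPL8 while calling 9.85% of all genes lower and moving the median of all genes by -0.30.

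RPL7A had 17.3, 14.4 and 15.8 CPM in cows D, E and F on treated day 7, against 25.9, 30.3 and 33.3 CPM on control day 4 (log2 fold change -0.62 ± 0.19, edgeR adjusted p = 0.0620). RPL22L1 had 29.6, 18.0 and 15.6 CPM on treated day 7, against 51.9, 40.5 and 55.3 CPM on control day 4 (-0.94 ± 0.36, adjusted p = 0.124). For both genes all 3 treated values lay below all 3 control day 4 values. Both comparisons with day 4 use the same control day 4 libraries as the comparison of control day 7 with day 4.

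The arms were also set against each other at each time point, since cows A to C and cows D to F differ before any treatment. On treated day 7, edgeR, DESeq2 and limma voom called 0 of the 62 genes, where edgeR called 0.0102% of all genes lower and 0% higher. There 2 of 62 stood at an unadjusted p under 0.05 (3.23%, against 9.13% of all genes), 2 were higher without overlap (RPL21 and RPL7L1, against 9.45% of all genes), and the median log2 fold change of the 17-OHPC/P4 arm over the P4 arm was 0.29 (-0.02 for all genes), or 0.15, 0.17 and 0.50 without the treated libraries of cows C, F and D. Without all libraries of cow C that median was 0.15 as well. On control day 7 edgeR, DESeq2 and limma voom also called 0 (0.00509% of all genes lower and 0% higher with edgeR), 4 of 62 were at an unadjusted p under 0.05 (6.45%, against 10.6%), and the median was 0.35 (0.06 for all genes), or 0.11, 0.14 and 0.76 without the control day 7 libraries of cows B, E and F. On control day 4, before treatment, edgeR called 0 (1.46% of all genes lower and 1.30% higher), 23 of 62 were at an unadjusted p under 0.05 (37.1%, against 22.2%), and the median was 0.59 (0.05 for all genes). There 26 of the 62 genes were higher in the 17-OHPC/P4 arm with no overlap, against 11.8% of all genes. DESeq2 called 10 of the 62 genes higher in that comparison (against 7.06% of all genes). Limma voom (1.57% of all genes higher) and edgeR with DESeq2 size factors (1.44%) called RPL21 alone.

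On control day 4, RPL21, a large-subunit protein, had 1226, 1242 and 1114 CPM in cows A, B and C, against 438, 471 and 757 CPM in cows D, E and F. The log2 fold change was 1.22 ± 0.32 (SE, edgeR adjusted p = 0.0541). RPL9, another large-subunit protein, had 534, 553 and 454 CPM in cows A, B and C, against 188, 225 and 307 CPM in cows D, E and F (1.21 ± 0.36, adjusted p = 0.0784). Neither gene overlapped between the arms on that day. RPL7L1 stood at 0.43 ± 0.13 (adjusted p = 0.0740) and RPL22, which can bind viral and cellular RNAs, at 0.98 ± 0.31 (adjusted p = 0.0920).

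RPS28 ran against most of the family between the arms, with the lowest fold change at each time point. It was not alone on that side. Of the 62 fold changes of the 17-OHPC/P4 arm over the P4 arm, 5 were below 0 on treated day 7, 5 on control day 7 and 2 on control day 4. On treated day 7, RPS28 had 9.46, 16.7 and 14.8 CPM in cows A, B and C, against 27.4, 22.8 and 19.8 CPM in cows D, E and F. On control day 7 it had 15.4, 23.4 and 12.4 CPM in cows A, B and C, against 27.7, 20.2 and 42.5 CPM in cows D, E and F. The arms did not overlap on treated day 7, where RPS28 was the only 1 of 62 genes lower without overlap, against 4.94% of all genes, and they overlapped on control day 7. The log2 fold changes of the 17-OHPC/P4 arm over the P4 arm were -0.88 ± 0.32 on treated day 7, -0.93 ± 0.32 on control day 7 and -0.51 ± 0.32 on control day 4 (edgeR adjusted p = 0.414, 0.314 and 0.356), none of which passed.

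**Figure D5:**
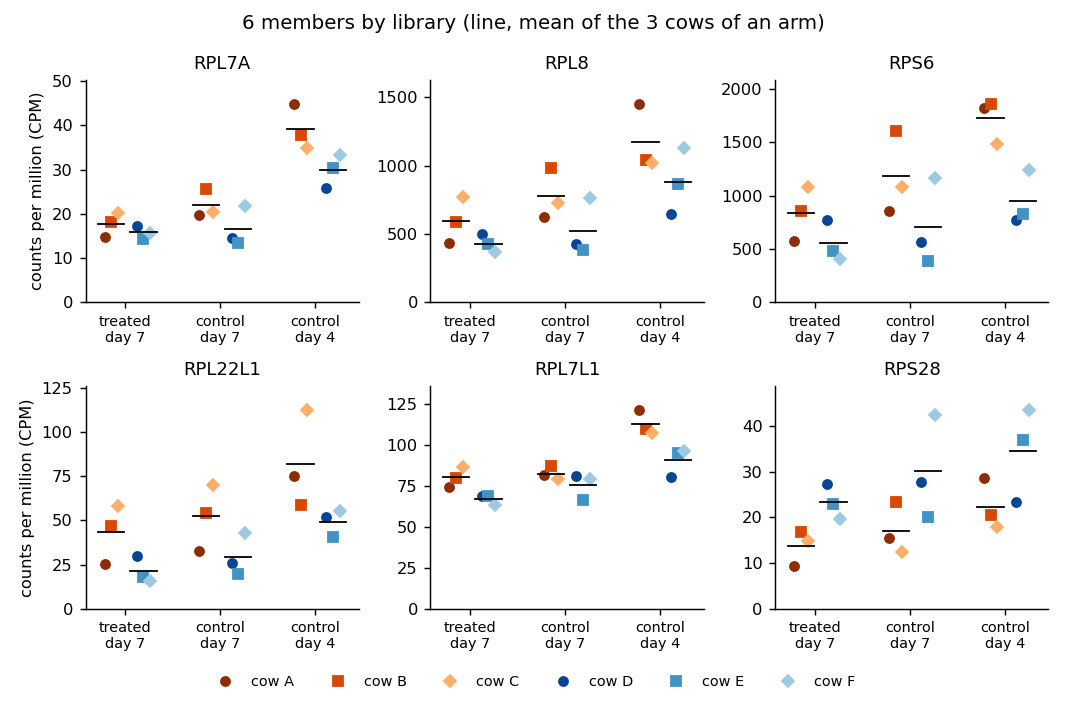
CPM of RPL7A, RPL8, RPS6, RPL22L1, RPL7L1 and RPS28 (vertical axes, each from 0) in every library, by time point, with cows A to C of the 17-OHPC/P4 arm left of cows D to F of the P4 arm and with a line at the mean of each arm. RPL7A on control day 4 (25.9 to 44.9 CPM) lies above both day 7 groups in this scaling by total count, and RPS28 is the panel in which the P4 arm is the higher one. With the TMM factors, RPL7A on control day 4 and control day 7 overlaps.

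The 3 paralogs varied to different degrees. RPL7L1 was the steadiest, at 63.6 to 86.3 CPM on treated day 7, 66.1 to 87.1 CPM on control day 7 and 80.3 to 121 CPM on control day 4. RPL22L1 spanned 15.6 to 58.0 CPM on treated day 7, 19.5 to 70.1 CPM on control day 7 and 40.5 to 113 CPM on control day 4. RPL26L1 spanned 13.6 to 24.0 CPM on treated day 7, 16.0 to 28.3 CPM on control day 7 and 22.04 to 32.2 CPM on control day 4. For RPL22L1, the highest value at each time point was that of cow C.

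Other messages with a TOP start and factors around the ribosome were examined as lists, whose counts on control day 7 against day 4 stand beside 4.28% of all genes called lower and 6.27% higher. In CPM, 15.1% of all genes tested were lower in all 6 cows and 7.39% higher. The lists were chosen with earlier results of these data known, so these counts cannot show that a list differs from all genes. Of 21 further TOP genes tested (translation factors and ribosome-linked proteins), 1 fell and 0 rose on control day 7 against day 4, with a median of -0.15, against -0.27 for the 62 ribosomal protein genes. The gene was EIF3L, a subunit of the initiation factor eIF3, at 119 ± 21.6 CPM on control day 7 and 180 ± 22.5 CPM on control day 4 (SD, n = 6 each; log2 fold change -0.45 ± 0.12, edgeR adjusted p = 0.0250, lower in 6 of 6 cows). Within cows, the median change of these 21 genes for treated against control day 7 was -0.37, -0.79 and 0.03 in cows A, B and C, and 0.44, -0.01 and -0.95 in cows D, E and F. On treated day 7 against control day 4 in the 17-OHPC/P4 arm, the median fold change of the TOP list was -0.60. There 0 of the list were called, beside 0.0255% of all genes called lower and 0.657% higher.

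Among 20 carriers and assembly factors of ribosomal proteins, a list also chosen with earlier results known, 5 fell and 0 rose on control day 7 against day 4 (median -0.27). In the same libraries that gave the calls, all 5 were lower in 6 of 6 cows, as were 15.1% of all genes tested. They were TSR1 (-0.83 ± 0.11, edgeR adjusted p = 0.00112), NOB1, the nuclease that trims 18S ribosomal RNA (-0.51 ± 0.12, 0.0169), the kinase RIOK1 (-0.48 ± 0.11, 0.0161), BCCIP (-0.67 ± 0.18, 0.0300) and GRWD1, a chaperone of RPL3 in human cells (-0.41 ± 0.11, 0.0321). TSR1, a factor of small-subunit assembly, averaged 24.6 ± 4.76 CPM on control day 7 and 48.3 ± 5.42 CPM on control day 4 (SD, n = 6 each). Of 26 genes of mTOR and MYC control, RHEB, the activator of mTOR complex 1, rose (1.68 ± 0.28, adjusted p = 0.00325, higher in 6 of 6 cows), SESN1, which restrains that complex, rose (0.63 ± 0.18, 0.0382, higher in 5 of 6), and AKT2 fell (-0.34 ± 0.10, 0.0344, lower in 6 of 6). Of 14 genes of ribosome rescue and recycling, the recycling factor ABCE1 fell (-0.37 ± 0.11, adjusted p = 0.0460, lower in 6 of 6). Several of these calls were close to the threshold: of 28 alternatives, ABCE1 lost its call in 17, GRWD1 in 14, SESN1 and AKT2 in 13 each, BCCIP in 9, EIF3L in 8, RIOK1 in 4 and NOB1 in 2, while TSR1 and RHEB lost it in 0.

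The proteins of mitochondrial ribosomes are made from separate genes. Of 70 tested, 1 fell on control day 7 against day 4 (MRPS27, -0.58 ± 0.11, edgeR adjusted p = 0.00750, lower in 6 of 6 cows), and the median was -0.04. Within cows, their median change on control day 7 against day 4 was -0.41, -0.10 and -0.17 in cows A, B and C, and 0.02, -0.29 and -0.04 in cows D, E and F. For treated against control day 7 it was -0.18, -0.08 and 0.19 in cows A, B and C, and -0.04, -0.23 and -0.31 in cows D, E and F. The difference between these 70 and the 62 cytosolic genes was not tested. On control day 4, 11 of the 70 were higher in the 17-OHPC/P4 arm and 0 lower (median 0.47), beside 1.30% and 1.46% of all genes, where edgeR called 0 of the 62 cytosolic genes. For treated against control day 7, edgeR called 0 genes of any of these lists, where 0% of all genes were called in either direction.

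Genes outside the family that followed it most closely were named by the Pearson correlation of log2 CPM with the mean of the 62 genes over the 18 libraries, among 13504 genes with a symbol. The first 3 were UXT, a prefoldin-like protein (0.980), EEF1B2, a subunit of elongation factor 1 (0.979), and RACK1, a scaffold bound to the small subunit (0.976). They were followed by KLB, TUT1, POLR1D, MRPL11, EIF3K, EIF2A and FUNDC1, the last at 0.954. The median over all 13504 genes was 0.247, 130 genes reached at least 0.9, and libraries of the same cow are not independent points.

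Markers of cell types and of RNA content also varied between the groups. The summed level of the 12 epithelial markers was 2385 to 4830 CPM on treated day 7, 3196 to 5253 CPM on control day 7 and 3921 to 6689 CPM on control day 4. The 14 markers of T and NK cells, all above 0 in every library, summed to 79.2 to 128 CPM on treated day 7, 67.0 to 160 CPM on control day 7 and 122 to 351 CPM on control day 4, and the 16 proliferation genes to 263 to 619 CPM on treated day 7, 337 to 518 CPM on control day 7 and 179 to 2247 CPM on control day 4. The 12 stromal markers summed to 266 to 3525 CPM on treated day 7, 156 to 5053 CPM on control day 7 and 364 to 7095 CPM on control day 4, with cow C highest at each time point. Mitochondrially encoded genes took 6.21% to 12.4% of the counts on treated day 7, 5.55% to 8.89% on control day 7 and 4.72% to 6.79% on control day 4. The part of these differences in the ribosomal protein results was not tested.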

How the data were processed

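Polyadenylated RNA of the 18 brushed endometrium samples was sequenced in read pairs, per the labels' protocols. The authors deposited counts per gene, not normalized, with STAR and featureCounts after cutadapt and FastQC (DESeq2 is listed too), per the submitters' processing notes, which give no versions. Build, annotation, strand setting and treatment of reads with several matches: not given in the sources used here. Symbols came from the deposited table, which lists 17715 of its 38001 rows without a symbol. All 62 symbols were also found in the RefSeq gene table, but 0 of its Ensembl identifiers matched, so no coordinates are printed, and no sequence was at hand for the planned look at TOP starts, which was not run.

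Counts were tested with edgeR 4.0.16 in R 4.3.3 (filterByExpr, TMM factors of 0.881 to 1.16, robust quasi-likelihood F test) in 1 fit of 6 group means over all 18 libraries. Benjamini-Hochberg adjustment ran over the 19638 genes tested, with calls at an adjusted p under 0.05. Fold changes are log2 with standard errors. CPM and shares use total counts with Python 3.11 (pandas and numpy). Between libraries of a group, genes varied by a biological coefficient of variation of 51.4%, or 39.4% within cows. A letter marks 1 cow in its 3 samples, so samples pair by design, and the correlation of a cow's libraries in their deviations from the group means ran from -0.0712 to 0.718 over 18 pairs. It was 0.393 to 0.718 in cows A to C and -0.0712 to 0.357 in cows D to F. The main fit left this pairing out. No 2 libraries were identical. Alternatives were DESeq2 1.42.0, limma voom (limma 3.58.1), a cow block, other scalings, filters and sample sets. The edgeR test was first tried on simulated counts, with less variation between libraries than in these data and no pairing by cow. That trial does not show how the test performs here. Named genes are the called members, the members with the smallest p in each comparison, members standing for a role, the paralogs, called genes of the lists and the 10 genes most like the family, and RPSA, RPS28, the fifth called assembly factor and the members listed as called under an alternative were named from their values. Some single-gene results are not reported here. The members and lists were chosen with earlier results of these data known.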

Additional observations from a re-analysis of the deposited data

Results flagged for a closer look

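Among 99 sets of within-cow changes examined for a value far from the others, 1 stood out, where chance alone picks about 1 in 20 such sets. RPL22L1 changed by -1.46 on the log2 CPM scale between treated day 7 and control day 7 in cow F, the lowest of the 6 cows, with a gap to the next value of 0.649 of the whole range. In the other cows the change was -0.38 in cow A, -0.22 in cow B, -0.28 in cow C, 0.21 in cow D and -0.11 in cow E. The median change of the 62 genes in cow F was -1.32, and relative to the median of the 62 genes in the same library RPL22L1 changed by -0.07 in that cow.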

How the results depend on the processing

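Of the 387 recomputed counts of called members, 362 stayed within 1.5 times the count reported and 25 did not. Because each count reported was 0 or 1, staying within that limit meant the identical count, which says little about how steady the fold changes are. For control day 7 against day 4, library size alone called 2 members over all cows and 1 in the P4 arm, and DESeq2 called 2 among cows A to C and 1 among cows D to F. For treated day 7 over control day 4 in the 17-OHPC/P4 arm, DESeq2 called 8, while a fit of only the 2 groups, or without cow C (an alternative chosen after seeing the data), called 0. In the P4 arm, DESeq2 called 1, the animal as a replicate block 2 and library size alone 4. Between arms on control day 4, DESeq2 called 10, and limma voom and DESeq2 size factors 1 each. With 1 library left out at a time, the count ran from 1 to 8 for control day 7 against day 4 over all cows and from 0 to 1 in the P4 arm, from 0 to 1 in either arm for treated day 7 over control day 4, and for the 17-OHPC/P4 over the P4 arm from 0 to 1 on control day 7 and from 0 to 2 on control day 4. With 1 library left out, RPL9 ran from -0.89 to 0.028 (difference between arms in the change of treated over control day 7) and RPL38 from -0.58 to 0.016 (difference in the change between days). The causes were not tested.

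The paired fit, with the replicate block, changed no other count of called members (of the other named genes it lost the call of SESN1, adjusted p = 0.0550, edgeR), and could not be made between arms, since each cow is in 1 arm. Over all genes in the 17-OHPC/P4 arm, the paired fit called 1029 against 134 for treated day 7 over control day 4, and 108 against 8 for control day 7 over day 4. In the P4 arm it called 2702 against 1468 and 2975 against 1698. TMM factors taken without the ribosomal protein genes, also added after seeing the data, left every count of called members as reported. The median fold change of the 62 genes turned sign in 9 recomputations, all without 1 library and all in the P4 arm or the interactions. Relative to TMM, library size alone moved the median of all genes by more than 0.1 in 7 of the 13 comparisons, from -0.30 to 0.23. With 3 cows per group, differences of the size of the 95% intervals given could not be resolved.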
